A study of Arabidopsis thaliana with 6 samples.

Results

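The genes described here carry vesicle traffic and membrane fusion in Arabidopsis, as far as their annotation symbols begin with the name of a SNARE, exocyst, ESCRT, Rab, NET, synaptotagmin or related family. The symbols of all probe sets annotated to a single gene were searched, ignoring case, and the brightest probe set of a gene was to be taken. This gave 38 genes of the 13356 that have a single-gene probe set, each with 1 probe set, among all probe sets tested. By name, 34 of the 38 belong to vesicle traffic families. The other 4 share only letters with them: EXO (EXORDIUM), SEC (SECRET AGENT), and SECA2 and SECE1 of the plastid Sec translocase. The same search found no symbol with a VAMP, SNAP, VTI, ARFA, VSR, EHD, SNX, adaptor, CHMP, DRP, PATL or ORP name. Genes of these groups were analysed only where they carry another matching symbol, as ESCRT genes do under VPS symbols.

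Expression was measured on Affymetrix arrays in whole seedlings 5 days old, raised in light on OS medium with no treatment. There were 3 genotypes with 2 biological replicates each: the wild type, the atvap mutant, and TaVAPOE, a wild type that overexpresses TaVAP. The series title asks about TaVAP in stress tolerance. The labels give no mutated locus, no promoter for the transgene and no accession or number of lines, so no targeted gene could be checked and each genotype may stand for 1 line.

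Vesicles bud from a donor membrane, are tethered to a target by complexes such as the exocyst, and fuse when SNARE proteins on both membranes zip together with the help of Sec1/Munc18 (SM) proteins. ESCRT complexes work in the opposite geometry and pinch vesicles into endosomes, which sorts membrane proteins for breakdown in the vacuole. VAP proteins, for which the study is named, sit in the endoplasmic reticulum (ER) and hold it to other membranes, in plants together with the actin-binding NET3C.

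The deposited values are logarithms to an unstated base, so differences are in log units of that scale and no folds are given. Probe sets differ in brightness, so levels are compared between arrays and not between genes. Across the 38 genes, wild type 2, atvap mutant 2 and both TaVAPOE arrays resembled each other, with Pearson correlations of 0.958 to 0.990. Wild type 1 correlated with these 4 at 0.645 to 0.701, and atvap mutant 1 with any other array at −0.012 to 0.219. The same arrays stood apart over all probe sets, where the correlations were 0.935 to 0.979 among the 4, 0.518 to 0.526 for wild type 1, and 0.072 to 0.194 for atvap mutant 1. Marker lists were searched by symbol among the probe sets that name 1 gene. The 4 genes found of an 8-gene list of photosynthetic shoot markers averaged 2.91 on atvap mutant 1 and 6.58 on wild type 1. On the other 4 arrays they averaged 7.60 to 7.77. EXPA7, a root hair expansin and the only gene found of 9 root markers, read 3.79 on atvap mutant 1 and 1.69 to 3.12 elsewhere. No gene of the flower, seed storage or pollen lists was found this way. As 8730 of the 22746 probe sets are unnamed here, such genes may be on the array without a name. The part these shifts play in the results was not tested. In RNA from whole seedlings, fewer cells of a type and less RNA per cell cannot be told apart. The low correlations of wild type 1 and atvap mutant 1 extend over all probe sets and not only over markers. Whether they come from the tissue, from the array or from its deposited values was not tested. Every comparison is therefore given over 6 arrays and over the 4 arrays that resemble each other.

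**Figure D1:**
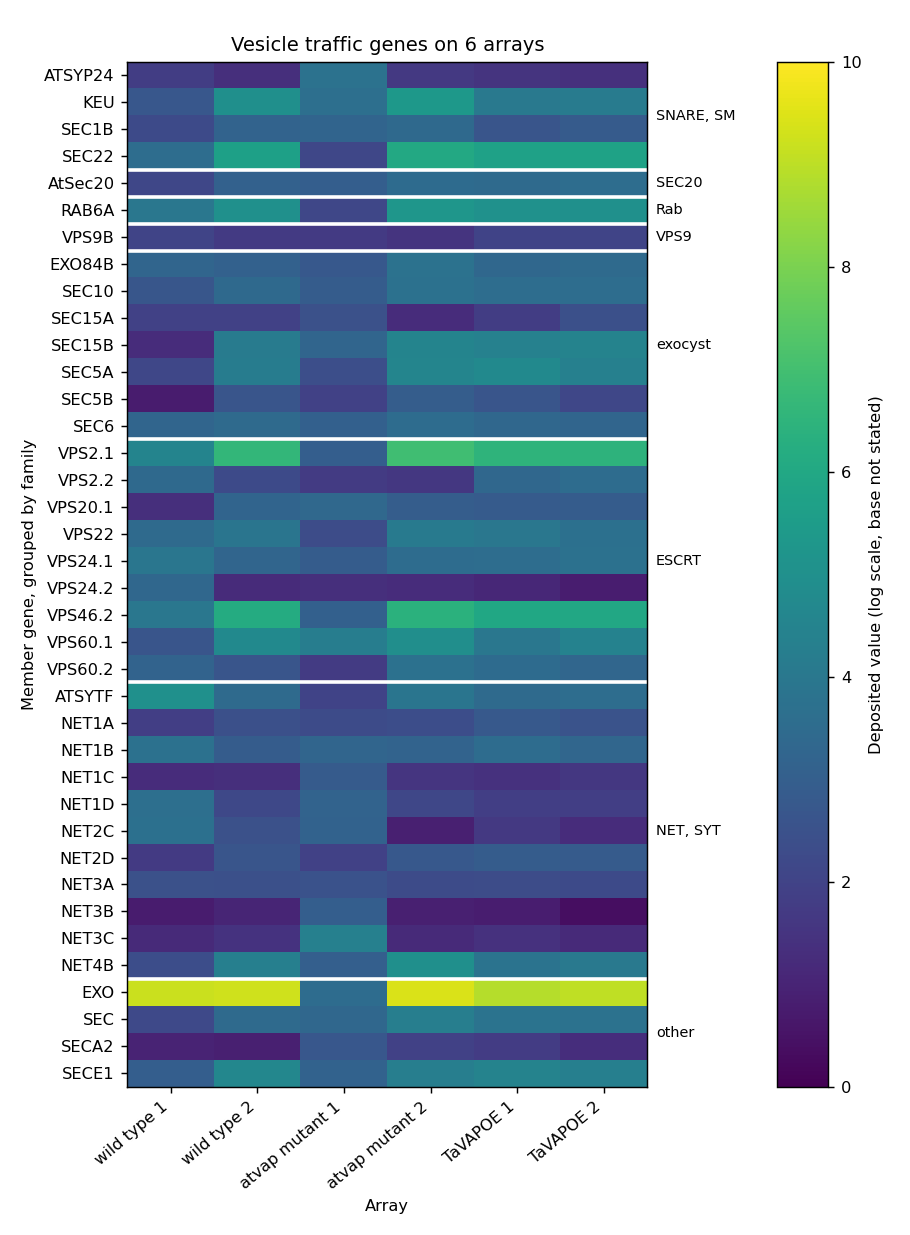
Deposited value (colour, log scale of unstated base, 0 to 10) of each of the 38 genes (rows, grouped by family) on the 6 arrays (columns). Wild type 2, atvap mutant 2 and both TaVAPOE arrays share a pattern, whereas on atvap mutant 1 all values lie between 1.36 and 4.34.

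On atvap mutant 1 the members lay between 1.36 and 4.34, with an SD of 0.70 over the 38 genes, against 1.51 to 1.86 on the other 5 arrays. EXO adds to this spread, at 8.88 to 9.43 on those 5 arrays and 3.53 on atvap mutant 1. Over all probe sets the SD was 0.82 on atvap mutant 1 and 1.08 on wild type 1, against 1.55 to 1.67 on the other 4 arrays. Replicates of TaVAPOE were close: their members differed by a median of 0.150 log units, and 37 of 38 by under 0.5. Over all probe sets, 87.8% differed by under 0.5 between these replicates. For the wild type the median difference between replicates was 0.961, and it reached 2.86 for SEC15B. For the atvap mutant it was 1.07 and reached 5.90 for EXO. These medians were near those of all probe sets, at 0.191, 0.962 and 0.999.

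Within each array, the median member ranked at percentile 63.4 on wild type 2, 71.0 on atvap mutant 2, and 68.5 and 66.3 on the TaVAPOE arrays. It ranked at 41.9 on wild type 1 and 55.6 on atvap mutant 1. The 20th percentile of all values, 1.66, served as a floor for dim probe sets, and 25 of the 38 genes read above it on all 6 arrays. NET1C, NET3B, NET3C and VPS24.2 read below it on 5 arrays, including all 4 that resemble each other. Their differences over 4 arrays are thus between values under the floor, and become 0 when values are raised to it.

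**Figure D2:**
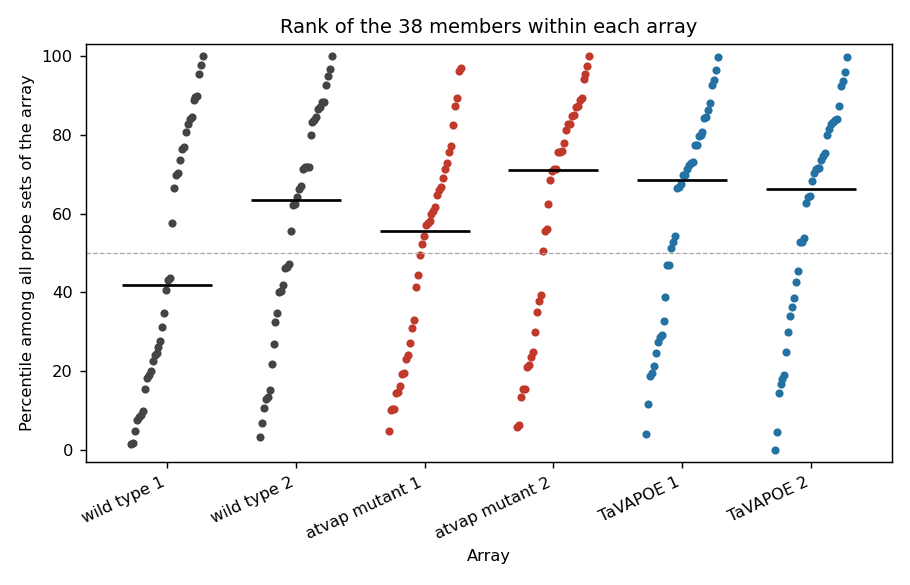
Percentile of each of the 38 genes among all probe sets of its array (vertical axis), by array. Points are genes sorted by rank, the black bar is the median and the dashed line marks percentile 50; the median is lowest on wild type 1, at 41.9.

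In the values that follow, replicate 1 comes before replicate 2. Leaving aside AtSec20, which is described after them, 4 genes of SNAREs and SM proteins were measured. SEC22, a SNARE of traffic between the ER and the Golgi, read 3.57 and 5.70 (wild type), 2.14 and 6.05 (mutant) and 5.72 and 5.76 (TaVAPOE). KEU (KEULE), the SM protein that works with the syntaxin KNOLLE when the cell plate forms at cytokinesis, read 2.70 and 4.99, 3.66 and 5.35, and 4.05 and 4.18 in the same order. SEC1B, the close relative of KEU, read 2.26 and 3.18, 3.22 and 3.41, and 2.64 and 2.88. SEC22 was highest on atvap mutant 2 and lowest on atvap mutant 1, so its mutant values span those of the other genotypes. KEU in TaVAPOE lay between the replicates of each other genotype. The mutant values of SEC1B lay above both other genotypes, although the nearest wild-type array was only slightly lower. Over 6 arrays, TaVAPOE minus wild type was 0.27 ± 0.94 (limma standard error, as in all such values) for KEU. Over 4 arrays the sign turned to −0.88 ± 0.19, with a limma adjusted p of 0.1224. Against the mutant, KEU in TaVAPOE differed by −0.39 ± 0.94 over 6 arrays and −1.23 ± 0.19 over 4 arrays (limma adjusted p = 0.1389). For SEC1B these differences from the mutant were −0.56 ± 0.52 and −0.65 ± 0.21 (limma adjusted p = 0.2891 over 4 arrays). Neither gene passed the test. ATSYP24, a syntaxin-related gene, read 3.77 on atvap mutant 1 and between 1.34 and 1.83 on the other 5 arrays, so its difference of −1.28 ± 0.77 between TaVAPOE and the mutant was −0.23 ± 0.20 over 4 arrays and −0.012 there with values raised to the floor.

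Single members stood for 3 further steps of the route. AtSec20, whose relatives act as a SNARE in return traffic from the Golgi to the ER, read 2.12 and 3.10 (wild type), 2.98 and 3.51 (mutant) and 3.46 and 3.59 (TaVAPOE). Its TaVAPOE values lay above both wild-type values, by 0.91 ± 0.54 over 6 arrays and 0.42 ± 0.20 over 4 (limma adjusted p = 0.8697 and 0.3159). RAB6A, a Golgi Rab GTPase also named RABH1B, read 3.97 and 5.01, 2.13 and 5.27, and 5.06 and 5.03. Apart from the arrays wild type 1 and atvap mutant 1, RAB6A stayed within 0.26 log units, the second-narrowest range of all members after NET3A at 0.19. VPS9B, named after the exchange factor of Rab5-type GTPases, read 2.06 and 1.70, 1.71 and 1.52, and 2.02 and 2.06. TaVAPOE was above both mutant arrays, by 0.43 ± 0.45 over 6 arrays (limma adjusted p = 0.8654) and 0.53 ± 0.19 over 4. The value of atvap mutant 2 lay below the floor. With values raised to the floor, these VPS9B differences were 0.36 and 0.38.

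The exocyst tethers secretory vesicles to the plasma membrane, and 7 genes of its subunits were measured: EXO84B, SEC10, SEC15A, SEC15B, SEC5A, SEC5B and SEC6. SEC15B read 1.29 and 4.14 (wild type), 3.28 and 4.53 (mutant) and 4.41 and 4.46 (TaVAPOE). SEC5A read 2.14 and 4.21, 2.41 and 4.56, and 4.73 and 4.37. For both genes TaVAPOE lay above the wild type without overlap, and wild type 1 held the lowest of the 6 values. TaVAPOE minus wild type was 1.72 ± 1.01 for SEC15B over 6 arrays and 0.29 ± 0.19 without the discordant arrays. For SEC5A these were 1.37 ± 0.98 and 0.34 ± 0.24. SEC15A, the paralog of SEC15B, read 1.91 on both wild-type arrays, and the TaVAPOE values of 1.83 and 2.45 lay on either side of them. SEC6 was steady, between 3.08 and 3.52 on all 6 arrays. Over the 7 genes, the median difference of TaVAPOE from the wild type was 0.53 with 6 positive over 6 arrays, and 0.23 with 5 positive over 4. Against the mutant the sign of the median turned, from 0.25 with 5 positive to −0.16 with 1 positive.

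**Figure D3:**
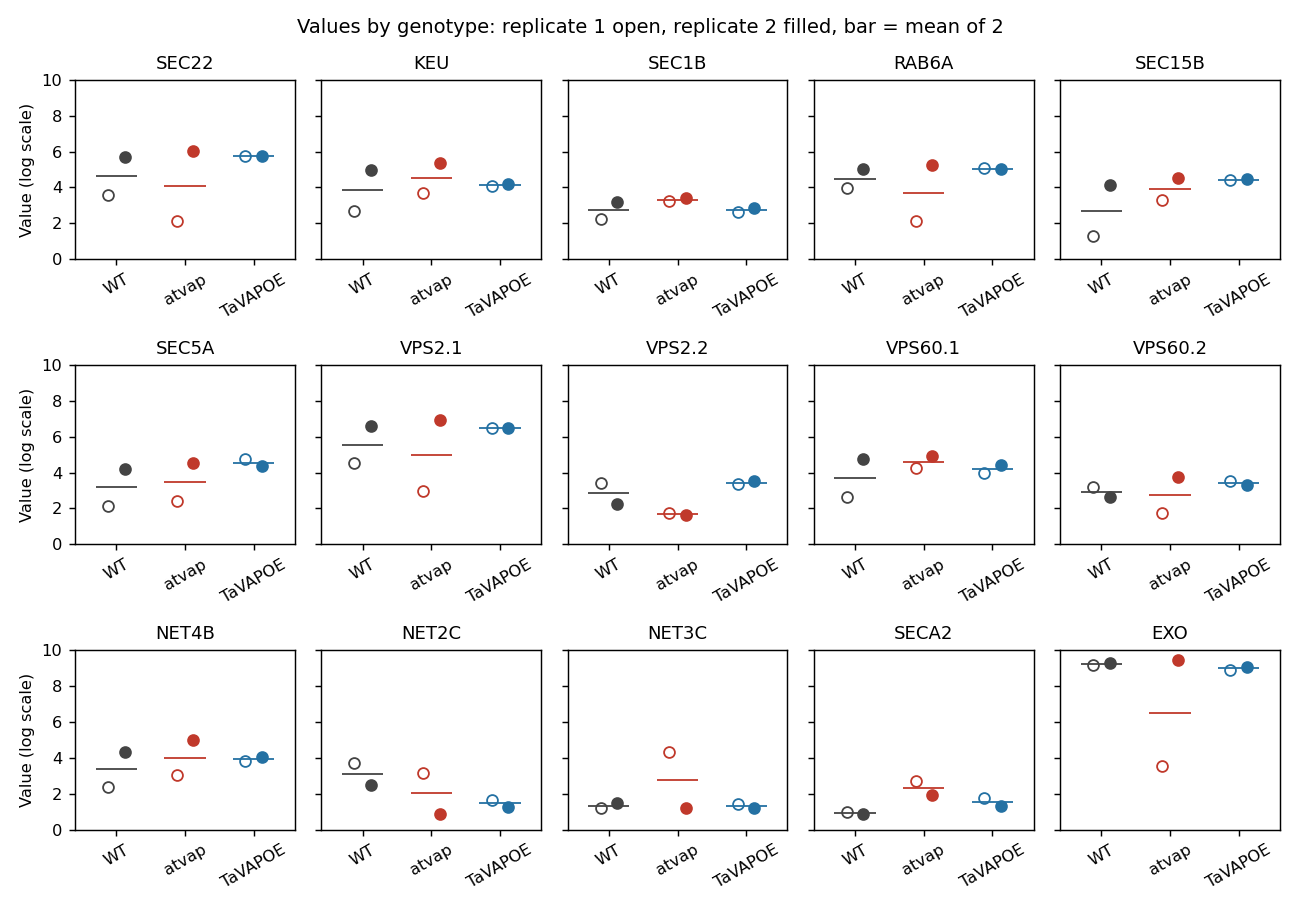
Deposited value (vertical axis, log scale of unstated base) of 15 genes chosen as examples across families after their values were seen, by genotype (horizontal axis). Open circles are replicate 1, filled circles replicate 2 and bars the mean of both; VPS2.2 in TaVAPOE (3.34 and 3.54) lies above both mutant values (1.73 and 1.62).

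The ESCRT genes numbered 9: VPS22 of ESCRT-II, and VPS2.1, VPS2.2, VPS20.1, VPS24.1, VPS24.2, VPS46.2, VPS60.1 and VPS60.2, which encode ESCRT-III proteins and their relatives that polymerise to cut the membrane neck. VPS2.2 (AT5G44560) read 3.43 and 2.24 (wild type), 1.73 and 1.62 (mutant) and 3.34 and 3.54 (TaVAPOE). Both mutant arrays were the lowest of the 6, including the one that is otherwise discordant, and both TaVAPOE arrays were higher than wild type 2, with wild type 1 between them. TaVAPOE minus mutant was 1.76 ± 0.56 over 6 arrays (limma adjusted p = 0.8654) and 1.82 ± 0.20 over 4 (limma adjusted p = 0.09595). The mutant differed from the wild type by −1.16 ± 0.56 over 6 arrays and −0.62 ± 0.24 over 4 (limma adjusted p = 0.9999 and 0.3946). TaVAPOE minus wild type was 0.60 ± 0.56 over 6 arrays and 1.20 ± 0.20 over 4 (limma adjusted p = 0.8697 and 0.0955). With 1.91 log units, VPS2.2 had the widest range of all members over the 4 arrays, yet none of these differences passed the test. Its paralog VPS2.1 (AT2G06530) read 4.51 and 6.62, 2.99 and 6.92, and 6.51 and 6.48. VPS2.1 was lowest on the discordant arrays, and its values on the other 4 arrays stayed within 0.44 log units.

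VPS60.2 read 3.19 and 2.62 (wild type), 1.72 and 3.74 (mutant) and 3.51 and 3.31 (TaVAPOE). The difference of the mutant from the wild type was −0.17 ± 0.75 over 6 arrays and 1.12 ± 0.24 over 4 (limma adjusted p = 0.2741), because atvap mutant 1 held the lowest value and atvap mutant 2 the highest. TaVAPOE was above both wild-type arrays, by 0.51 ± 0.75 and 0.79 ± 0.21 (limma adjusted p = 0.1475 over 4 arrays). VPS60.1 read 2.62 and 4.75, 4.25 and 4.93, and 3.98 and 4.43. Its difference between TaVAPOE and the wild type was 0.52 ± 0.79 over 6 arrays and −0.55 ± 0.26 over 4. Over 6 arrays the means ran TaVAPOE, wild type, mutant for VPS60.2 and mutant, TaVAPOE, wild type for VPS60.1, highest first. Over 4 arrays the mutant was highest for both. Whether the paralogs differ from each other was not tested. VPS20.1, at 1.34 on wild type 1 and 2.86 to 3.39 on the other arrays, differed between mutant and wild type by 0.88 ± 0.71 over 6 arrays and −0.28 ± 0.22 over 4. VPS24.2 read 3.36 on wild type 1 and at most 1.36 elsewhere, and its TaVAPOE minus wild type difference of −1.34 ± 0.77 over 6 arrays was −0.85 with values raised to the floor, and −0.28 ± 0.23 over 4 arrays. Its paralog VPS24.1 gave 2.91 and 3.53 (mutant) and 3.58 and 3.74 (TaVAPOE). TaVAPOE minus mutant for VPS24.1 was 0.44 ± 0.51 over 6 arrays and 0.13 ± 0.20 over 4. For the 9 ESCRT genes, the median difference of the mutant from the wild type was −0.37 with 2 positive over 6 arrays, and 0.23 with 7 positive over 4. TaVAPOE minus wild type had a median of 0.52 with 8 positive over 6 arrays, and −0.12 with 3 positive over 4.

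At contact sites between membranes and the cytoskeleton, 10 NET genes, whose proteins join actin filaments to membranes, and ATSYTF, a synaptotagmin-family gene, were measured. NET4B, which belongs to the NET4 proteins of the vacuole membrane, read 2.38 and 4.31 (wild type), 3.04 and 4.97 (mutant) and 3.82 and 4.05 (TaVAPOE). TaVAPOE minus mutant was −0.07 ± 0.91 over 6 arrays and −1.03 ± 0.21 over 4 (limma adjusted p = 0.1843), and atvap mutant 2 was the highest array. NET2C, of a group known from pollen, read 3.69 and 2.49, 3.14 and 0.89, and 1.66 and 1.27. Both TaVAPOE arrays lay below both wild-type arrays, by −1.62 ± 0.87 over 6 arrays and −1.02 ± 0.25 over 4 (limma adjusted p = 0.1343). The mutant differed from the wild type by −1.07 ± 0.87 over 6 arrays and −1.60 ± 0.28 over 4 (limma adjusted p = 0.2741), but its replicates differed by more than 2 log units. The value of atvap mutant 2 lay below the floor, as did both TaVAPOE values. With values raised to the floor, the mutant differed from the wild type by −0.69 over 6 arrays and −0.83 over 4, and TaVAPOE by −1.43 and −0.83. NET1D read 3.64 and 2.15 (wild type), 3.18 and 2.13 (mutant) and 1.87 and 1.86 (TaVAPOE). TaVAPOE lay below both other genotypes, and its difference from the wild type went from −1.03 ± 0.69 to −0.29 ± 0.19 without the discordant arrays. NET2D read 1.69 and 2.63 (wild type), 1.93 and 2.77 (mutant) and 2.92 and 2.88 (TaVAPOE), and TaVAPOE lay above the mutant by 0.55 ± 0.57 over 6 arrays and 0.13 ± 0.19 over 4. NET1B read 3.71 and 2.90 (wild type), 3.26 and 3.18 (mutant) and 3.55 and 3.30 (TaVAPOE). For NET1B, TaVAPOE minus wild type was 0.12 ± 0.50 over 6 arrays and 0.53 ± 0.21 over 4 (limma adjusted p = 0.2639), and TaVAPOE lay above both mutant arrays.

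NET3C (AT2G47920), the actin-binding partner of VAP27, read 1.20 and 1.45 (wild type), 4.34 and 1.18 (mutant) and 1.44 and 1.19 (TaVAPOE). It was below the floor on every array but atvap mutant 1, so its mutant minus wild type difference of 1.43 ± 1.03 became −0.27 ± 0.25 over 4 arrays. NET3B and NET1C had the same form, at 3.00 and 2.87 on atvap mutant 1 and at or below 1.63 on all other arrays. For NET1C, mutant minus wild type was 0.90 ± 0.58 over 6 arrays and 0.17 ± 0.24 over 4, and for NET3B, TaVAPOE minus mutant was −1.35 ± 0.77 and −0.28 ± 0.25. Raising values to the floor leaves −0.67 of the former for NET3B. The NET3C value on that array has no counterpart in the replicate. Over the 11 contact-site genes, no median difference was larger than 0.16 in size.

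Among the 4 genes outside the families, EXO, a cell expansion gene, read 9.19 and 9.27 (wild type), 3.53 and 9.43 (mutant) and 8.88 and 9.06 (TaVAPOE). Only atvap mutant 1 departed, and the difference of −2.75 ± 1.78 between mutant and wild type became 0.16 ± 0.23 without it and wild type 1. SECA2, the motor of the plastid inner envelope translocase, read 0.996 and 0.865 (wild type), 2.71 and 1.92 (mutant) and 1.78 and 1.32 (TaVAPOE). The 3 genotypes did not overlap for SECA2, which holds for 1 of 38 members and 4.93% of all probe sets. The mutant exceeded the wild type by 1.38 ± 0.51 over 6 arrays (limma adjusted p = 0.9999) and 1.05 ± 0.31 over 4 (limma adjusted p = 0.3158). Its wild-type values and 1 TaVAPOE value lay below the floor, and raising values to the floor leaves differences of 0.65 over 6 arrays and 0.26 over 4. TaVAPOE minus wild type for SECA2 was 0.62 over 6 arrays and 0.06 with values raised to the floor. SEC, an O-GlcNAc transferase, read 2.2 and 3.44, 3.35 and 4.26, and 3.82 and 3.77, and the mutant exceeded the wild type by 0.99 ± 0.62 and 0.83 ± 0.22 (limma adjusted p = 0.3003 over 4 arrays). TaVAPOE minus wild type for SEC was 0.97 ± 0.62 and 0.36 ± 0.19. SECE1, a subunit of the thylakoid translocase, read 2.99 and 4.63 (wild type), 3.16 and 4.26 (mutant) and 4.46 and 4.32 (TaVAPOE), and mutant minus wild type was −0.10 ± 0.72 over 6 arrays and −0.37 ± 0.23 over 4.

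No member passed the limma test at an adjusted p under 0.05 in any comparison over 6 arrays, where 0% of all probe sets did. Members at an unadjusted p under 0.05 numbered 1 (SECA2) for mutant minus wild type, 0 for TaVAPOE minus wild type and 1 (VPS2.2) for TaVAPOE minus mutant. Over all probe sets the shares were 0.958%, 2.14% and 1.31%. Over 4 arrays again no member passed, against 0% of probe sets for mutant minus wild type, 0.0396% for TaVAPOE minus wild type and 0.0659% for TaVAPOE minus mutant. At an unadjusted p under 0.05, 6, 4 and 7 members were counted there, and 13%, 21.1% and 14.8% of all probe sets. Only the TaVAPOE pair gives the spread of that fit (1 residual degree of freedom), which assumes that the single wild-type and mutant arrays vary as this pair does. The 3 comparisons share arrays: each genotype enters 2 of them.

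**Figure D4:**
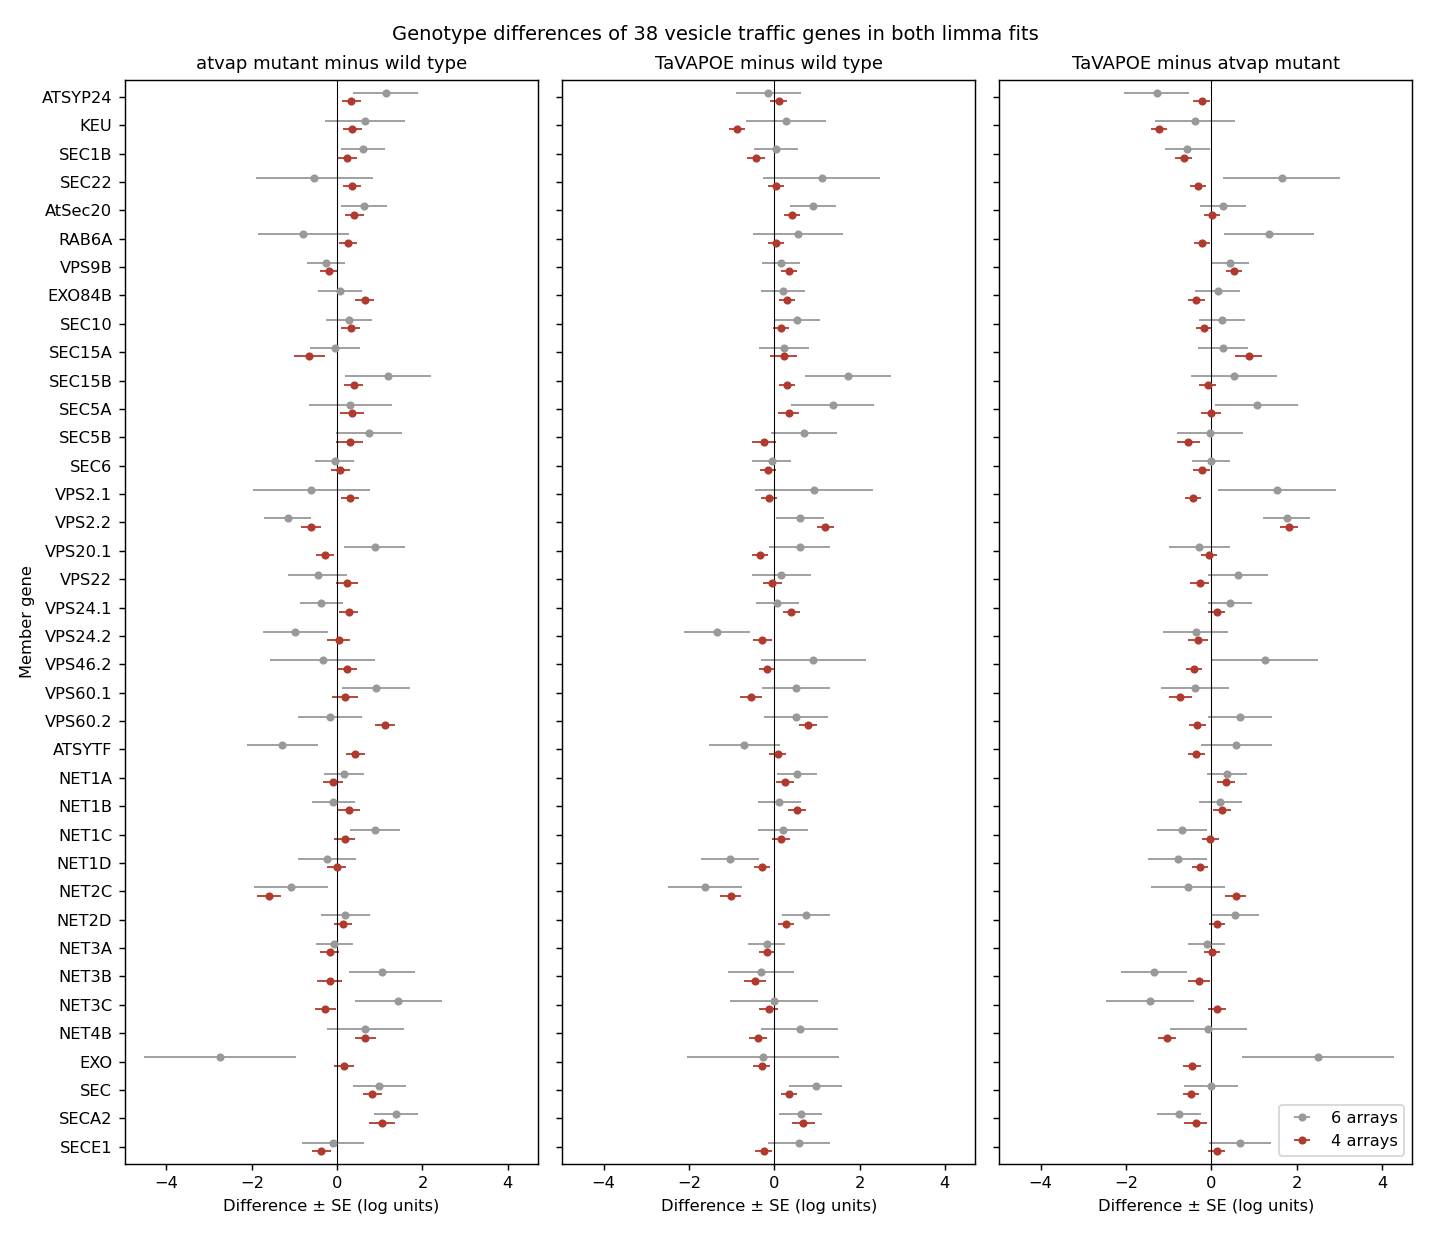
Difference between genotypes with its limma standard error (horizontal axis, log units) for each of the 38 genes (rows), for the 3 comparisons (panels), over 6 arrays (grey) and over 4 arrays (red). No difference passed the test, and the errors over 6 arrays (0.44 to 1.78) are wider than those over 4 (0.19 to 0.37).

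Groups of arrays that do not overlap were also counted. The mutant lay above the wild type for 3 members (NET1C, SECA2 and SEC1B) and below it for 1 (VPS2.2), against 10.7% and 7.28% of all probe sets. TaVAPOE lay above the wild type for 13 members (34.2%) and below it for 5 (13.2%), against 25.3% and 20.8%. TaVAPOE lay above the mutant for 7 members and below it for another 7 (18.4% each), against 19.8% and 19.7%. No floor was applied to these counts or shares, so some members are separated by values under the floor of 1.66. Examples are NET1C for the mutant above the wild type, and NET3B and VPS24.2 for TaVAPOE below the mutant. With wild type 1 left aside, both TaVAPOE arrays were above wild type 2 for 19 members (50%) and below it for 16 (42.1%), against 38.3% and 39.5%. With atvap mutant 1 left aside, they were above atvap mutant 2 for 10 members (26.3%) and below it for 24 (63.2%), against 37% of probe sets in each direction.

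The array atvap mutant 2 was the highest of the 4 for 21 members (55.3%) and the lowest for 7 (18.4%), against 25.2% and 23.2% of all probe sets. Its lead over the next array was small, with a median of 0.224 log units and a range of 0.0353 to 0.662. Among members with a mean above the median it was highest for 17 of 24 (70.8%), against 29.9% of the probe sets that bright. On atvap mutant 1, 16 of the 21 genes lay below wild type 2 and both TaVAPOE arrays, and 4 above them. The same share over all probe sets is not given here. No member read above 4.34 on that array, so genes brighter than this elsewhere had to lie below the others there. It therefore cannot show whether the mutant genotype shares the lead of atvap mutant 2. The count of 21 thus rests on 1 array, and was made after the data had been seen.

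The genotype order changed with the arrays used. Over 6 arrays TaVAPOE had the highest mean for 19 of 38 members, or 50% against 38% of all probe sets, and the commonest order was TaVAPOE over wild type over mutant, with 12 members. Over 4 arrays TaVAPOE was highest for 8 members, or 21.1% against 33.5%, and the mutant for 23, or 60.5% against 31.9%. The order of the 3 genotypes was the same in both fits for 9 of 38 members, or 23.7% against 31%. Members' median differences followed the same change. For mutant minus wild type the median was 0.01 over 6 arrays and 0.24 over 4, against 0.00 and 0.01 for all probe sets. TaVAPOE minus wild type had a median of 0.39 over 6 arrays and 0.04 over 4, against 0.03 and −0.01. For TaVAPOE minus mutant the median was 0.23 over 6 arrays and −0.23 over 4, against −0.05 and 0.00.

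**Figure D5:**
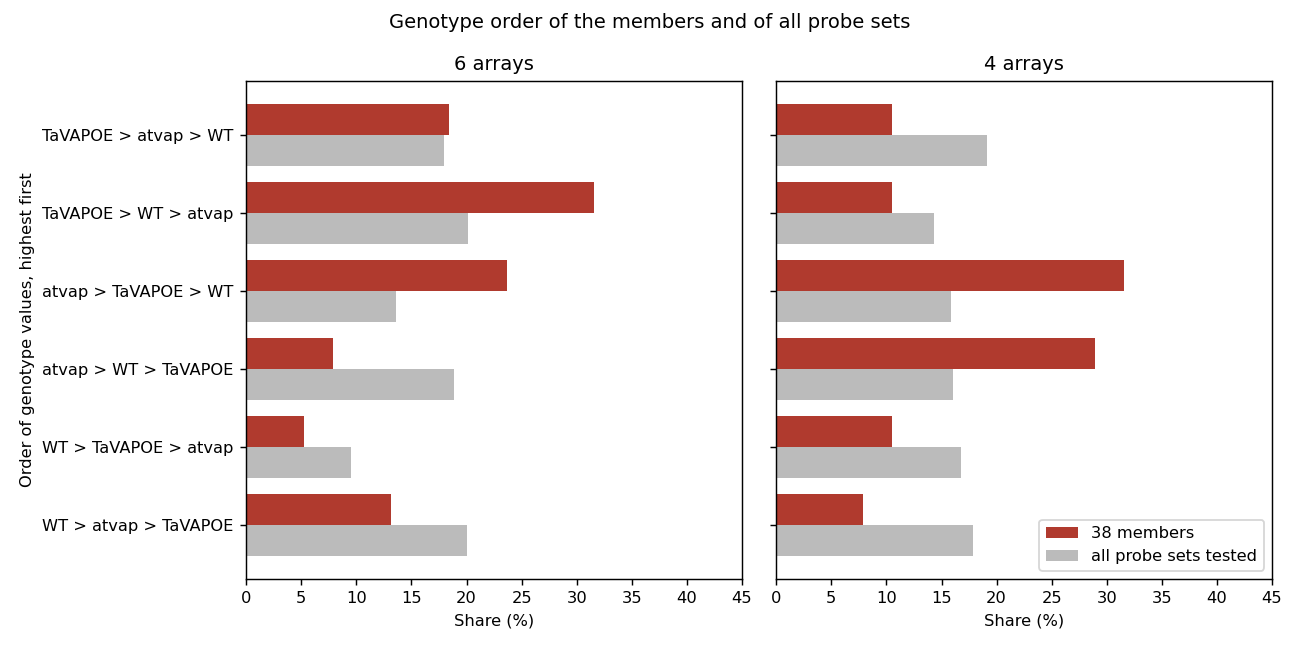
Share (horizontal axis, percent) of the 38 members (red) and of all probe sets tested (grey) with each order of the 3 genotype means (rows), over 6 arrays (left) and 4 arrays (right). TaVAPOE over wild type over mutant held 12 of 38 members over 6 arrays and 4 of 38 over 4.

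Of a list of 126 symbols of other vesicle traffic genes that the name search does not reach, 5 were found by symbol: ARA6, CLUB, ELC, MAG2 and TPLATE. The rest may lie among probe sets that are unnamed here. A sixth match, CHC1, was left aside because this symbol here stands for a gene also named BAF60 and not for clathrin. None of the 5 passed the test in any comparison over 6 or 4 arrays. CLUB, a subunit of the TRAPPII tethering complex, read 1.97 and 3.24 (wild type), 3.44 and 3.84 (mutant) and 4.09 and 4.19 (TaVAPOE). TaVAPOE thus lay above the wild type without overlap, by 1.54 ± 0.58 over 6 arrays and 0.90 ± 0.19 over 4 (limma adjusted p = 0.8697 and 0.1175). ARA6, a Rab5-type GTPase of endosomes, read 3.86 and 4.01, 1.85 and 4.09, and 4.62 and 4.35. TPLATE, of an endocytic adaptor complex, read 3.37 and 3.51, 3.38 and 3.38, and 3.96 and 3.78. For both, as for CLUB, TaVAPOE held the highest values of the 6 arrays. ELC, of ESCRT-I, was lowest on wild type 1 at 3.51 and between 4.40 and 5.34 elsewhere, and MAG2, a tethering protein at the ER, stayed between 2.85 and 3.34. TaVAPOE lay above the wild type without overlap for CLUB, ARA6, TPLATE and ELC, and below it for MAG2. Over all probe sets the shares were 25.3% above and 20.8% below.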

How the data were processed

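The deposited table of the authors holds 1 score per probe set and array, for 22810 probe sets, which the values show to be logarithms. Base, summarisation and normalization are not stated in the sources used here. Agilent Feature Extraction is the only tool in the submitters' processing notes (no version) and is made for other arrays than the Affymetrix ones of the labels. Precision is limited by 2 arrays per genotype. Values were used as deposited. After removal of 64 control probe sets, 22746 were fitted with limma 3.58.1 in R 4.3.3 (genotype means, 3 residual degrees of freedom, two-sided, Benjamini-Hochberg adjustment within a comparison, threshold 0.05), and the script was tested on simulated data. Of the probe sets, 13513 name 1 gene, 503 several and 8730 are unnamed here. The annotation and the RefSeq gene table (TAIR10.1) named the same 38 members. A probe set for SEC3A and SEC3B matched but names several genes and was left out.

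Members, lists and alternatives were chosen with earlier results of these data known. Genes were named as the brightest of each family, as up to 3 per direction with the smallest limma p among non-overlapping groups, and as up to 3 per direction with the largest difference over 4 arrays among brighter probe sets; others are examples chosen after their values were seen. Alternatives were the 4-array fit, leaving out each array, quantile normalization, median centring, a floor, a filter on dim probe sets, array weights, an intensity trend, fits to the 2 groups alone, the replicate block, the 34 family members alone, other probe set choices and RefSeq symbols.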

Additional observations from a re-analysis of the deposited data

How the results depend on the processing

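No member was called in any comparison under any alternative run. Nearly no other probe set was called either: array weights called 3 of 22746 for TaVAPOE minus wild type, and the 4-array shares are given above. The lack of calls is thus no trait of these genes. The fit with the replicate block called 0 members and left the medians at 0.01, 0.39 and 0.23. It changed no other call, and the labels do not state that replicate numbers pair arrays. Deviations of same-numbered arrays from their genotype mean correlated at 0.58 between wild type and mutant. They correlated at 0.0141 between wild type and TaVAPOE, and at 0.0884 between mutant and TaVAPOE. Each deviation holds both replicates of its genotype. Over all probe sets, wild type 2 and atvap mutant 2 correlated at 0.957, but wild type 1 and atvap mutant 1 at 0.072. The 0.58 therefore cannot show whether the replicate 1 arrays are paired. Leaving out each array, the median difference of the members ran from −0.15 to 0.59 for mutant minus wild type, from 0.041 to 0.44 for TaVAPOE minus wild type and from −0.23 to 0.46 for TaVAPOE minus mutant. The mutant minus wild type median was 0.59 without wild type 2 and 0.50 without atvap mutant 1. TaVAPOE minus wild type was 0.041 without wild type 1, and TaVAPOE minus mutant was −0.23 without atvap mutant 1; the 4-array fit gave the same 0.041 and −0.23. Members with the highest mean in TaVAPOE numbered 8 over 4 arrays and 9 to 22 when 1 array was left out, 9 of them without atvap mutant 1, against 19. From 6 to 4 arrays the sign of the difference turned for 16 of 38 members in mutant minus wild type, 12 in TaVAPOE minus wild type and 15 in TaVAPOE minus mutant. Among the 32 single-gene differences recomputed under the alternatives, it turned for KEU (−0.88), SEC1B (−0.42) and VPS60.1 (−0.55) for TaVAPOE minus wild type, and VPS20.1 (−0.28) and VPS60.2 (1.12) for mutant minus wild type. Quantile normalization turned NET1B to −0.23 for TaVAPOE minus wild type. Leave-one-out ranges that crossed 0 were, for TaVAPOE minus wild type, −0.88 to 1.42 for KEU, −0.28 to 0.53 for NET1B, −0.42 to 0.50 for SEC1B and −0.55 to 1.58 for VPS60.1. For TaVAPOE minus mutant they were −1.23 to 0.45 for KEU and −1.03 to 0.89 for NET4B. For mutant minus wild type they were −2.20 to 0.048 for NET2C, −0.30 to 1.63 for NET4B, −0.92 to 0.72 for SECE1, −0.064 to 1.83 for VPS20.1 and −1.18 to 0.83 for VPS60.2. Among these 32 differences over 6 arrays, raising values to the floor moved 1 each of NET3B, VPS24.2, SECA2 and NET2C by over 1.5 times, as given with their values. Differences outside the 32 also moved that far. Examples for TaVAPOE minus wild type are SECA2, from 0.62 to 0.06, and SEC5B, from 0.70 to 0.25. The floor over 4 arrays and the recomputed NET2C difference of mutant and wild type were added after seeing the data. VPS2.2 in TaVAPOE minus mutant ran from 1.67 to 1.86. Its arrays of these genotypes do not overlap, so leaving out 1 array could not have turned its sign. The cause of these shifts was not tested. The mutant 2 count of 21 was 20 after quantile normalization, 21 after centring, 20 with the floor and 18 of 34 family members, all chosen after seeing the data. Each member has 1 probe set, so means of all probe sets of a gene changed nothing by construction. RefSeq symbols were matched separately and named the same 38 members.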
